A study of Mus musculus with 24 samples.

Results

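The mitochondrial protein import machinery was followed in 24 RNA libraries of mouse heart, wild type or labelled with defects of long-chain fatty acid oxidation. Its genes were taken by name: every gene whose symbol starts with Timm or Tomm, which gave 26, and 10 others (Samm50, Dnajc19, Grpel1, Grpel2, Chchd4, Gfer, Pmpca, Pmpcb, Mipep and Oxa1l), so 36 of the 24421 genes counted. Of these, 35 had enough reads to be tested. The product of Acadl is the long-chain acyl-CoA dehydrogenase, and that of Acadvl is its very long-chain counterpart. Both enzymes start the oxidation of long fatty acids inside mitochondria. There were 4 libraries labelled Acadl KO / Acadvl wt, 5 with Acadl KO / Acadvl Het, 4 with Acadl Het / Acadvl KO, 3 that were heterozygous for both (Acadl Het / Acadvl Het), 4 with Acadl Het / Acadvl wt and 4 wild-type ones (Acadl wt / Acadvl wt). All were males of 14 weeks on chow, of a mixed strain that was mostly C57BL/6N with some 129. The libraries labelled Acadvl KO also carried the Acadl Het label, as did their controls. The labels do not say which bases either allele lacks, nor which cells lack them.

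Nearly all mitochondrial proteins are made in the cytosol and must be brought in. Precursors pass the outer membrane through the TOM complex, and then part ways. Those with a cleavable presequence cross the inner membrane through TIM23, pulled by a motor built around mitochondrial Hsp70. Carrier proteins are escorted by the small TIM chaperones to TIM22, small cysteine-rich proteins are folded by the disulfide relay of Chchd4 and Gfer, and barrel-shaped proteins enter the outer membrane through SAM. Heart muscle is packed with mitochondria and uses this machinery heavily.

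In libraries labelled Acadl KO and in libraries labelled Acadvl KO alike, a group of import genes stood above the other genotypes, led by Grpel2, a nucleotide exchange factor of the motor, and by small TIM and TOM subunits. The 300-base promoter windows of Timm10, Timm8a1, Tomm5, Timm9 and Tomm40 are shown because these were, among the genes with a window, the 5 with the largest called increase in libraries labelled Acadl KO / Acadvl wt. Each window runs from 250 bases before the gene's start to 50 after it, in RefSeq's table for GRCm38.p6, and is written 5′ to 3′ on the gene's own strand. Timm10 lies on the plus strand at chr2:84826771-84827070, and the others lie on the minus strand, Timm8a1 at chrX:134541621-134541920, Tomm5 at chr4:45108064-45108363, Timm9 at chr12:71136626-71136925 and Tomm40 at chr7:19715380-19715679. Capitals mark every match, on either strand, to CACGTG, the E-box core read by basic helix-loop-helix factors, or to CCGGAAG, a site of ETS factors such as GABP. Where 2 matches overlap, as in Timm10, they form 1 run of capitals.
Timm10: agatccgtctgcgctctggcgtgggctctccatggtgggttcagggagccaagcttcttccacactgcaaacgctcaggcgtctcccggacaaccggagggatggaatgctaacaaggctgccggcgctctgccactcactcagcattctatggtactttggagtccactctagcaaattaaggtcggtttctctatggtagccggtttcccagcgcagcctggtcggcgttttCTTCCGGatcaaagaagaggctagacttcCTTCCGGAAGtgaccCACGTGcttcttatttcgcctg
Timm8a1: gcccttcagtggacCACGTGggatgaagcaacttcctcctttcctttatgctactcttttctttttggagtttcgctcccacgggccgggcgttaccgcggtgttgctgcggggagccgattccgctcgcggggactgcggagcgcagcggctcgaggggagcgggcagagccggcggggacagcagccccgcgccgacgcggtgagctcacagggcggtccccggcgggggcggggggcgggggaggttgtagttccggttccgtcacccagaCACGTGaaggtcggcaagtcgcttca
Tomm5: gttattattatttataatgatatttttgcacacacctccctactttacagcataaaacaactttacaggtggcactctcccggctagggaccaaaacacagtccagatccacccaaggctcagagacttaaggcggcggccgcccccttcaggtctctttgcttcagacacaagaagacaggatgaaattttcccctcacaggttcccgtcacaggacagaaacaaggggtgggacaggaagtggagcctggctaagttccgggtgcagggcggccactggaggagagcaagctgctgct
Timm9: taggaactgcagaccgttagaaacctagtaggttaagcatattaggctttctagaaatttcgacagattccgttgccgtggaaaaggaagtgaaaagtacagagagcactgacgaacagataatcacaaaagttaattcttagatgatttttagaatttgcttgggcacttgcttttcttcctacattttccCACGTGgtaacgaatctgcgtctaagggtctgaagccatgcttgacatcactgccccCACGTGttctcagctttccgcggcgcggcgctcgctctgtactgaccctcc
Tomm40: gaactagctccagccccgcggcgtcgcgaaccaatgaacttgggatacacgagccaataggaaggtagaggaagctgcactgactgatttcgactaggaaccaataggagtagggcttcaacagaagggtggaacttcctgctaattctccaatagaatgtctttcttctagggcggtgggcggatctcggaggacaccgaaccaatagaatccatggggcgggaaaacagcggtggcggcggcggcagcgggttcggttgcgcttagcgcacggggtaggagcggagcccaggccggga

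The E-box letters were found in the windows of Timm10, Timm8a1 and Timm9, where they begin 29 bases after the start of Timm10, at -236 and 25 in Timm8a1, and at -58 and -1 in Timm9. Over the 32 members with a window, 6 held CACGTG (18.8%), against 7.15% of the table's 32851 windows. Besides the windows shown, they were those of Tomm20 and Tomm6os, called higher in Acadl KO / Acadvl wt, and of Tomm20l, not called there. CCGGAAG was found in 12 of the 32 members' windows (37.5%), against 8.86% of all windows. They were those of Grpel1, Timm10, Timm10b, Timm23, Timmdc1 and Tomm70a, called higher in Acadl KO / Acadvl wt, of Pmpca, Pmpcb, Timm8b, Tomm22 and Tomm34, not called there, and of the untested Timm8a2. AAGGTCA, a site of estrogen-related receptors, was in 3 members' windows, those of Timm23, Timm44 and Timm8b (9.38%, against 4.72% of all windows). GCGCATGC, of the NRF1 type, was in 2, Grpel1 and Timm13 (6.25%, against 2.71%). TGACNNNGC, the antioxidant response core, was in 2, Oxa1l and Tomm20 (6.25%, against 12.4%). TGATGNAA, the composite read by ATF4 with C/EBP partners, was in none of the 32, against 3.97% of all windows, which says only that these letters are absent from these windows. Both strands were searched throughout. Each member counted with 1 window, the first listed, while the share of all windows took every window, also those of genes not tested here. The table had no window for Grpel2, Timm21, Tomm7 or Tomm40l.

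The libraries held 34320838 to 51743114 counted reads each, of which the 36 genes took 0.189% to 0.275%. Reads of Acadvl followed the Acadvl KO label, at 599 ± 121 CPM (counts scaled to library size) in Acadl Het / Acadvl KO (SD, n = 4) and 1632 ± 82.5 CPM in Acadl Het / Acadvl wt (SD, n = 4). Under the Acadvl Het label they ran from 1039 to 1122 CPM in Acadl Het / Acadvl Het. In Acadl KO / Acadvl Het they ran from 1163 to 1645 CPM, which overlapped the 1550 to 1593 CPM of Acadl wt / Acadvl wt. Reads of Acadl did not fall with the Acadl KO label. They averaged 1894 ± 167 CPM in libraries labelled Acadl KO / Acadvl wt (SD, n = 4), against 1358 ± 42.0 CPM in Acadl wt / Acadvl wt (SD, n = 4). In libraries labelled Acadl KO / Acadvl Het they averaged 1887 ± 46.3 CPM (SD, n = 5). Counts per whole gene cannot tell which part of Acadl was read, so Acadl KO is used here as a label only. One library, Acadl Het / Acadvl Het replicate 1, had 17.3% of its reads on ribosomal Rn45s, against at most 0.558% elsewhere. Albumin exceeded 10 CPM in 6 libraries: all 3 of Acadl Het / Acadvl Het, replicate 2 of Acadl Het / Acadvl KO, and replicates 2 and 3 of Acadl KO / Acadvl wt. The 8 cardiomyocyte markers summed to 66211 to 87193 CPM in every library, as a heart should show. The first RNA isolation batch held 9 libraries and the second 15, and each genotype had libraries in both.

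Levels per transcript length, in RPKM (CPM per kilobase of exons) averaged over the 24 libraries, spanned a wide range. Samm50, the pore that inserts barrel-shaped outer membrane proteins, was highest at 168 ± 8.09 RPKM (SD, n = 24). Timm23, the TIM23 channel, followed at 162 ± 28.0 RPKM and its partner Timm17a at 130 ± 19.5 RPKM (SD, n = 24 each). The gap between Samm50 and Timm23 was smaller than the spread of either over the libraries, but that spread mixes the genotypes. In Acadl wt / Acadvl wt Samm50 was the higher, at 167 ± 4.29 RPKM against 132 ± 6.36 RPKM for Timm23 (SD, n = 4 each). In Acadl KO / Acadvl wt Timm23 was the higher, at 198 ± 14.9 RPKM against 170 ± 10.8 RPKM for Samm50 (SD, n = 4 each). At the other end stood Timm22, the carrier translocase, at 5.74 ± 0.719 RPKM, and Grpel2 at 8.5 ± 3.97 RPKM (SD, n = 24 each). Tomm20l, a paralog of the receptor Tomm20, was barely present with 3 to 32 reads per library, and Timm8a2, a copy related to Timm8a1, had 0 to 2 reads and was not tested. Tomm6os is the transcript opposite Tomm6, and Timmdc1 assembles respiratory complex I rather than importing proteins. Both were kept because of their names. Reads were counted without regard to strand, and a read over 2 genes counted for both. That applies to the 11 members that overlap another gene on the opposite strand: Timm9, Tomm20l, Tomm6, Tomm6os, Tomm40l, Timm8b, Dnajc19, Grpel1, Oxa1l, Pmpca and Timm13.

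**Figure D1:**
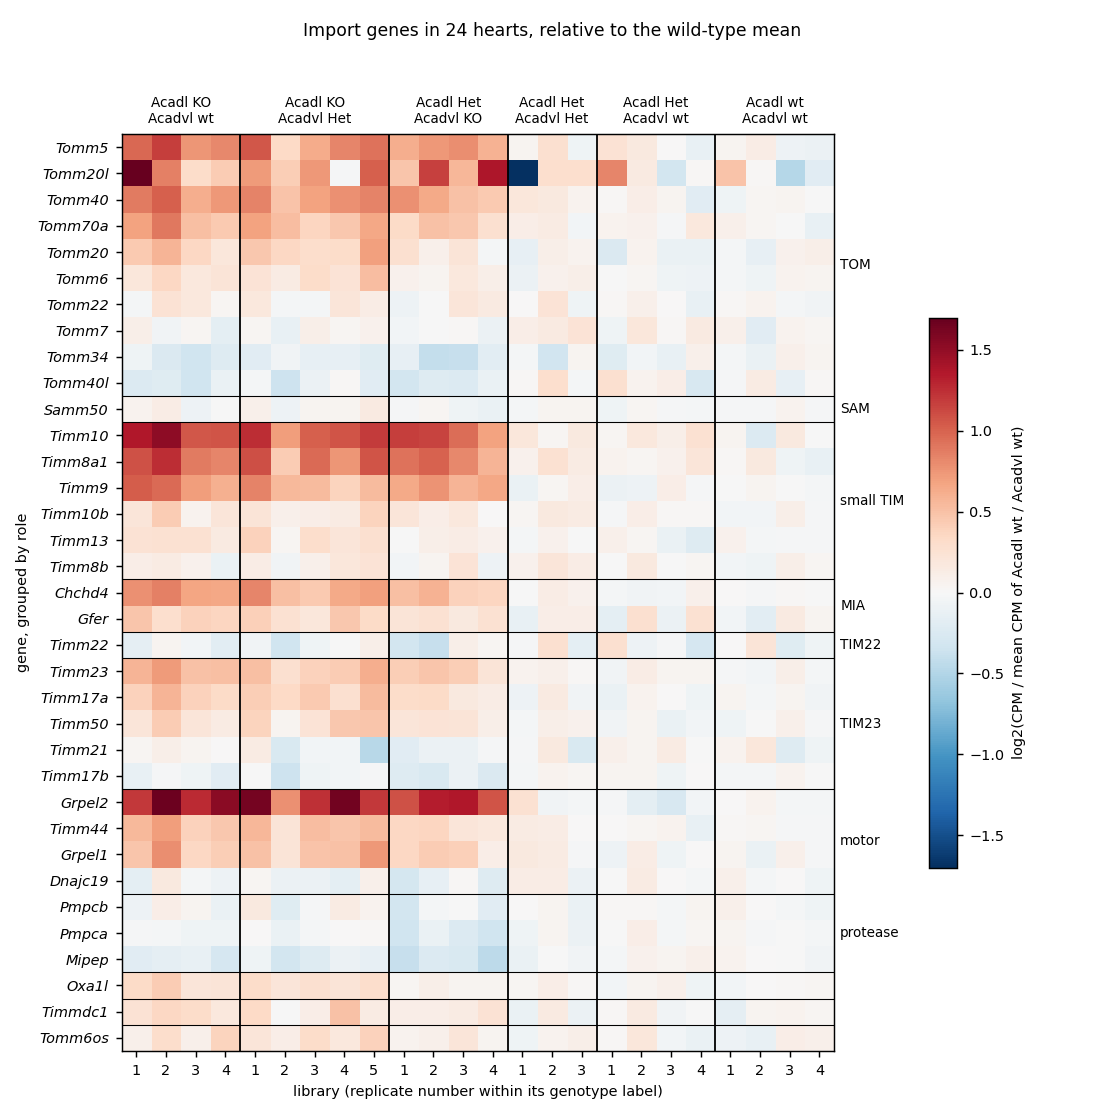
Level of the 35 tested genes in each of the 24 libraries, as log2 of CPM over the mean CPM of the 4 Acadl wt / Acadvl wt libraries; rows are grouped by role, columns by genotype label. The 13 columns with a knockout label are red for Grpel2, Timm10, Timm8a1, Tomm5, Timm9 and Tomm40, and the 11 others are near white for these genes.

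Libraries labelled Acadl KO / Acadvl wt were compared with Acadl wt / Acadvl wt to ask how the import genes differ under the Acadl KO label. Of the 35 genes tested, 21 were higher at an adjusted p below 0.05 (edgeR's quasi-likelihood test with Benjamini-Hochberg adjustment over 15804 genes), where 19.6% of all genes were. Only Mipep was lower, where 17.6% of all genes were. The median log2 change of the 35 was 0.26, beside -0.02 for all genes. Under upper-quartile scaling, which moved the median of all genes to -0.11, 15 of the 35 were higher and 5 lower. Within the second RNA isolation batch alone 18 were called, all of them higher, and within the first, with 1 library labelled Acadl KO / Acadvl wt and 2 wild-type libraries, 3 were called, also higher. There the single library was taken to vary like the genotypes with more than 1. Of all genes, 28.6% were called within the second batch and 0.534% within the first.

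A pooled comparison set the 9 libraries labelled Acadl KO (Acadvl wt or Het) against the 7 labelled Acadl Het with the same Acadvl labels. The 4 Acadl Het / Acadvl KO libraries were in neither group. There 22 of the 35 were higher, where 26.7% of all genes were, and Mipep and Tomm40l were lower, where 27.9% of all genes were. The median log2 change was 0.25, beside -0.03 for all genes. Upper-quartile scaling gave 18 higher and 7 lower, with the median of all genes at -0.12. The first batch alone gave 13 calls, where 2112 genes in all were called, and the second 19, where 7102 in all were. This comparison shares the Acadl KO / Acadvl wt libraries with the one against wild type.

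The very long-chain defect was tested in Acadl Het / Acadvl KO against Acadl Het / Acadvl wt, which share no library with the comparison against wild type. Of the 35 genes, 13 were higher, where 12.9% of all genes were, and Mipep, Pmpca and Timm17b were lower, where 11.5% of all genes were. The median log2 change was 0.13, beside 0.02 for all genes. All 13 higher genes (100.0%) were also among the 21 called higher in libraries labelled Acadl KO / Acadvl wt, of which they made up 61.9%. Across the 35 genes, 26 had a larger absolute log2 change in the Acadl KO / Acadvl wt comparison. Neither this count nor the overlap was made over all genes, so neither is read as particular to import genes. With upper-quartile scaling 12 were higher and 6 lower. The second batch gave 11 calls, and the first, with 1 library against 2, gave 1 call, for Grpel2. Of all genes 16.7% were called within the second and 1.29% within the first, where again the spread came from the other genotypes.

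**Figure D2:**
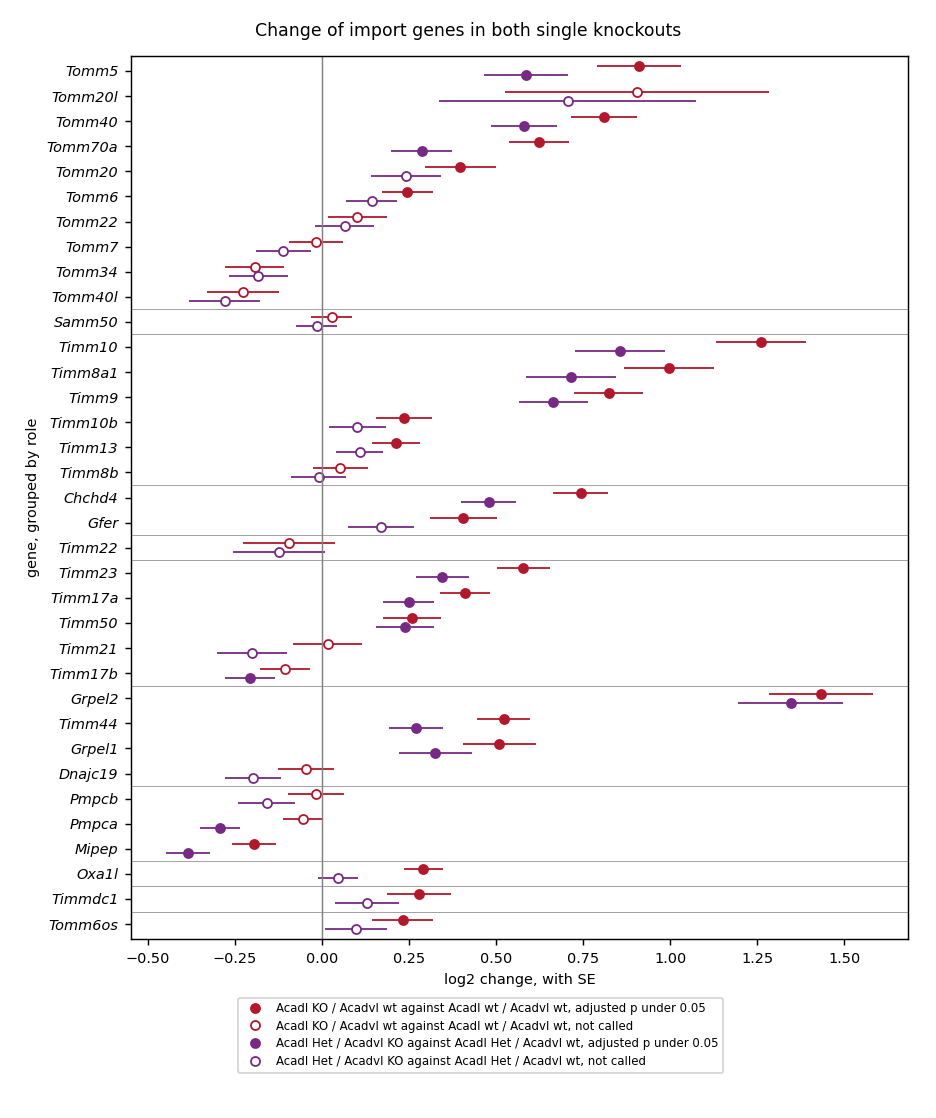
Log2 change of each tested gene with its standard error, for Acadl KO / Acadvl wt against Acadl wt / Acadvl wt (red, upper of each pair) and Acadl Het / Acadvl KO against Acadl Het / Acadvl wt (purple, lower), grouped by role. Filled points passed an adjusted p of 0.05; Grpel2 lies farthest right in both, at 1.43 and 1.35, and Mipep farthest left among filled points, at -0.20 and -0.38.

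For 10 of the 35 genes, every one of the 13 libraries with a knockout label lay above every one of the 11 others in CPM: Grpel2, Timm10, Timm8a1, Tomm5, Timm9, Tomm40, Chchd4, Tomm70a, Timm23 and Timm44. Among all 15804 genes 4.97% did so. None of the 35 lay wholly below, where 3.59% of all genes did.

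The outer membrane gate came first in the path. Tomm5, a small subunit of the TOM complex, was at 80.7, 92.8, 69.0 and 72.7 CPM in Acadl KO / Acadvl wt, against 42.4, 44.9, 38.8 and 38.4 CPM in Acadl wt / Acadvl wt. In Acadl Het / Acadvl KO it was at 63.4, 68.5, 70.9 and 62.2 CPM, against 48.6, 46.0, 41.4 and 37.5 CPM in Acadl Het / Acadvl wt. Neither pair of genotypes overlapped. Tomm5 was 1.88-fold higher in the first comparison (log2 0.91 ± 0.12 SE, edgeR adjusted p = 1.12e-05) and 1.5-fold higher in the second (log2 0.59 ± 0.12, adjusted p = 0.00134).

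Tomm40, the barrel that forms the TOM pore, was at 113, 124, 94.4 and 102 CPM in Acadl KO / Acadvl wt, against 58.2, 62.7, 63.5 and 61.1 CPM in Acadl wt / Acadvl wt. It was at 105, 96.1, 86.9 and 83.2 CPM in Acadl Het / Acadvl KO, against 62.3, 66.7, 63.7 and 53.6 CPM in Acadl Het / Acadvl wt. Again the genotypes did not overlap, with changes of log2 0.81 ± 0.10 (edgeR adjusted p = 2.88e-06) and 0.58 ± 0.09 (adjusted p = 0.000151). Tomm70a, the receptor that takes carrier precursors from cytosolic chaperones, averaged 128 ± 18.5 CPM in Acadl KO / Acadvl wt and 81.9 ± 5.14 CPM in Acadl wt / Acadvl wt (SD, n = 4 each). It averaged 107 ± 8.10 CPM in Acadl Het / Acadvl KO and 86.4 ± 5.0 CPM in Acadl Het / Acadvl wt (SD, n = 4 each). Both Tomm70a differences were called, at log2 0.62 and 0.29.

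The remaining TOM genes were more mixed. Tomm20, the presequence receptor, was higher in Acadl KO / Acadvl wt (113 ± 12.4 CPM) than in Acadl wt / Acadvl wt (86.0 ± 6.32 CPM, SD, n = 4 each), at log2 0.40. Its log2 change of 0.24 in Acadl Het / Acadvl KO was not called. Tomm6, another small subunit, was called only in libraries labelled Acadl KO, at log2 0.25 against wild type and 0.27 against Acadl Het, and its change of 0.14 in Acadl Het / Acadvl KO was not called. A direct test of Acadl KO / Acadvl wt against Acadl Het / Acadvl KO called neither, at log2 0.25 for Tomm20 and 0.13 for Tomm6. Tomm22, the central receptor, Tomm7, a small subunit, and Tomm34, a cytosolic cochaperone, were not called, with log2 changes between -0.19 and 0.10 in these and the pooled comparison. Tomm20l had 10 to 32 reads in libraries labelled Acadl KO, against 3 to 17 in those of the pooled Acadl Het group, and was called higher (log2 0.71 ± 0.29 SE, edgeR adjusted p = 0.0397). At this depth leaving out any of 8 libraries ended the call. Tomm20l overlaps Timm9 on the opposite strand, which changed by log2 0.70 there, and the part of shared reads was not tested. Tomm40l, a paralog of the pore, was called lower in the pooled comparison (log2 -0.25 ± 0.07, edgeR adjusted p = 0.00656). It overlaps Apoa2, a liver transcript that was itself lower there (log2 -0.51), and without the 6 libraries above 10 CPM of Alb the change of Tomm40l was -0.21 and not called. Samm50 stayed near 280 CPM, averaging 284 ± 18 CPM in Acadl KO / Acadvl wt and 280 ± 7.17 CPM in Acadl wt / Acadvl wt (SD, n = 4 each), and was not called.

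**Figure D3:**
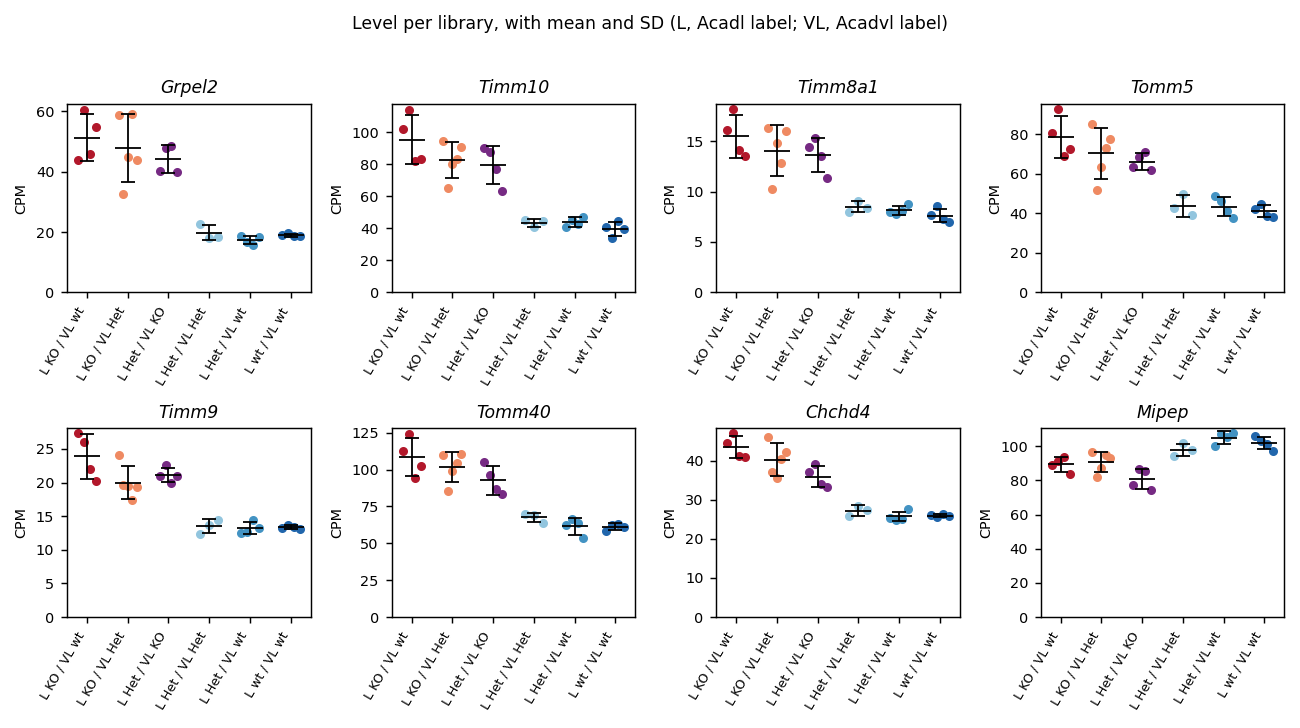
CPM of 8 import genes in each library by genotype label (points), with the mean and SD (bars); each vertical axis starts at 0. For the first 7 genes all 13 libraries with a knockout label lie above the 11 others, while for Mipep, a presequence protease, libraries with a knockout label (74.5 to 96.8 CPM) lie mostly below the others (94.3 to 108 CPM) and overlap them.

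The small TIM chaperones, which shield carrier proteins in the intermembrane space, held the next largest changes. Timm10 was at 102, 114, 82.2 and 82.97 CPM in Acadl KO / Acadvl wt, against 40.8, 33.8, 44.6 and 39.5 CPM in Acadl wt / Acadvl wt. It was at 89.9, 87.8, 77.0 and 63.5 CPM in Acadl Het / Acadvl KO, against 40.5, 44.95, 42.6 and 47.3 CPM in Acadl Het / Acadvl wt. The genotypes were far apart in both, at 2.40-fold (log2 1.26 ± 0.13 SE, edgeR adjusted p = 6.86e-07) and 1.81-fold (log2 0.86 ± 0.13, adjusted p = 7.08e-05). Within the first and second batch the change against wild type was log2 0.99 and 1.42. The change in Acadl Het / Acadvl KO was 0.51 and 0.99, in the same order.

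Timm9, which builds the hexamer with Timm10, was at 27.3, 26.1, 21.95 and 20.3 CPM in Acadl KO / Acadvl wt, against 13.3, 13.8, 13.4 and 13.1 CPM in Acadl wt / Acadvl wt. In Acadl Het / Acadvl KO it was at 21.0, 22.6, 19.98 and 21.0 CPM, against 12.5, 12.6, 14.5 and 13.2 CPM in Acadl Het / Acadvl wt. Its changes were log2 0.82 ± 0.10 (edgeR adjusted p = 3.66e-06) and 0.67 ± 0.10 (adjusted p = 6.35e-05). Timm8a1, the mouse counterpart of the human deafness-dystonia gene, was at 16.1, 18.2, 14.1 and 13.5 CPM in Acadl KO / Acadvl wt, against 7.70, 8.52, 7.25 and 7.01 CPM in Acadl wt / Acadvl wt. It was at 14.4, 15.3, 13.5 and 11.4 CPM in Acadl Het / Acadvl KO, against 7.96, 7.78, 8.04 and 8.79 CPM in Acadl Het / Acadvl wt. Timm8a1 therefore also lay apart in both, at log2 1.00 ± 0.13 (adjusted p = 7.98e-06) and 0.72 ± 0.13 (adjusted p = 0.000426).

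Their relatives moved less. Timm13, which pairs with Timm8 proteins, averaged 51.9 ± 1.72 CPM in Acadl KO / Acadvl wt and 44.3 ± 1.42 CPM in Acadl wt / Acadvl wt (SD, n = 4 each), a called log2 change of 0.21. Timm10b, which docks the chaperones on TIM22, had a log2 change of 0.24 there (edgeR adjusted p = 0.0254). Their changes of 0.11 and 0.10 in Acadl Het / Acadvl KO were not called. Timm8b was at 43.3 to 51.2 CPM in Acadl KO / Acadvl wt and 44.2 to 49.7 CPM in Acadl wt / Acadvl wt, and was not called (log2 0.05). Timm22, the channel these chaperones serve, was not called in any comparison either, at log2 -0.10 and -0.12.

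Both enzymes of the disulfide relay, which oxidises the small TIM proteins among others, were higher in libraries labelled Acadl KO. Chchd4, the oxidoreductase, was at 44.6, 47.1, 41.2 and 41.0 CPM in Acadl KO / Acadvl wt, against 26.0, 25.6, 26.4 and 25.8 CPM in Acadl wt / Acadvl wt. It was at 37.2, 39.1, 34.1 and 33.3 CPM in Acadl Het / Acadvl KO, against 25.4, 24.9, 25.2 and 27.6 CPM in Acadl Het / Acadvl wt. The libraries of each genotype lay close together, and the changes were log2 0.74 ± 0.08 (edgeR adjusted p = 8.58e-07) and 0.48 ± 0.08 (adjusted p = 0.000151). Gfer, the oxidase that recharges Chchd4, averaged 18.7 ± 1.04 CPM in Acadl KO / Acadvl wt and 14.4 ± 1.39 CPM in Acadl wt / Acadvl wt (SD, n = 4 each), a called log2 change of 0.41. Its change of 0.17 in Acadl Het / Acadvl KO was not called.

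Of the 5 TIM23 genes, Timm23, Timm17a and Timm50 were higher both in Acadl KO / Acadvl wt against wild type and in Acadl Het / Acadvl KO against Acadl Het / Acadvl wt. Timm23 was at 229, 255, 217 and 220 CPM in Acadl KO / Acadvl wt, against 152, 149, 165 and 150 CPM in Acadl wt / Acadvl wt. In Acadl Het / Acadvl KO it was at 206, 213, 206 and 179 CPM, against 147, 168, 159 and 159 CPM in Acadl Het / Acadvl wt. Its libraries did not overlap in either, with log2 changes of 0.58 ± 0.08 (edgeR adjusted p = 1.02e-05) and 0.35 ± 0.08 (adjusted p = 0.00234). Timm17a, its channel partner, changed by log2 0.41 and 0.25. Timm50, the presequence receptor of TIM23, changed by log2 0.26 and 0.24. Timm17b, the alternative partner, averaged 18.8 ± 0.951 CPM in Acadl Het / Acadvl KO and 21.7 ± 0.796 CPM in Acadl Het / Acadvl wt (SD, n = 4 each), a called log2 change of -0.21. Against wild type it changed by -0.11 in Acadl KO / Acadvl wt, which was not called. Timm21, which links TIM23 to TOM, was not called.

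The motor held the largest change of the whole machinery. Grpel2 was at 43.8, 60.3, 45.8 and 54.9 CPM in Acadl KO / Acadvl wt, against 19.0, 19.7, 18.5 and 18.6 CPM in Acadl wt / Acadvl wt. It was at 40.3, 48.0, 48.6 and 39.9 CPM in Acadl Het / Acadvl KO, against 18.7, 16.9, 15.6 and 18.3 CPM in Acadl Het / Acadvl wt. In Acadl KO / Acadvl Het its 5 libraries ran from 32.5 to 59.1 CPM, against 18.2 to 22.8 CPM in the 3 of Acadl Het / Acadvl Het. So Grpel2 was 2.70-fold higher (log2 1.43 ± 0.15 SE, edgeR adjusted p = 8.58e-07) in the first comparison and 2.54-fold higher (log2 1.35 ± 0.15, adjusted p = 3.88e-06) in the second.

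Timm44, which tethers the motor to the channel, averaged 136 ± 13.3 CPM in Acadl KO / Acadvl wt and 94.1 ± 1.93 CPM in Acadl wt / Acadvl wt (SD, n = 4 each), at log2 0.52. Grpel1, the main exchange factor, averaged 141 ± 20.3 CPM in Acadl KO / Acadvl wt and 98.5 ± 5.97 CPM in Acadl wt / Acadvl wt (SD, n = 4 each), at log2 0.51. Both were also called in Acadl Het / Acadvl KO, at 0.27 and 0.33. Dnajc19, a J protein of the motor linked to cardiomyopathy in humans, was not called, at log2 -0.05 and -0.20.

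The proteases that trim presequences went the other way or stayed. Mipep, which removes a further octapeptide after the first cut, was at 89.2, 91.3, 93.5 and 83.4 CPM in Acadl KO / Acadvl wt, against 106, 103, 101 and 97.4 CPM in Acadl wt / Acadvl wt. It was at 77.5, 86.6, 85.3 and 74.5 CPM in Acadl Het / Acadvl KO, against 99.8, 107, 105 and 108 CPM in Acadl Het / Acadvl wt. Mipep was thus lower without overlap in both, at log2 -0.20 ± 0.06 (edgeR adjusted p = 0.0197) and -0.38 ± 0.06 (adjusted p = 0.000178). Pmpca, the alpha subunit of the processing peptidase, averaged 182 ± 13.6 CPM in Acadl Het / Acadvl KO and 221 ± 9.64 CPM in Acadl Het / Acadvl wt (SD, n = 4 each), a called log2 change of -0.29. In libraries labelled Acadl KO / Acadvl wt it changed by -0.05 and was not called. Its partner Pmpcb was called in neither, at -0.02 and -0.16. Oxa1l, which inserts proteins into the inner membrane from the matrix side, averaged 131 ± 9.76 CPM in Acadl KO / Acadvl wt and 106 ± 2.38 CPM in Acadl wt / Acadvl wt (SD, n = 4 each), a called log2 change of 0.29. Its change of 0.05 in Acadl Het / Acadvl KO was not called. Timmdc1 and Tomm6os were called in libraries labelled Acadl KO / Acadvl wt, at log2 0.28 and 0.23, and not in Acadl Het / Acadvl KO, at 0.13 and 0.10.

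The Acadl KO / Acadvl wt and Acadl Het / Acadvl KO libraries were also set against each other directly, a comparison that shares its libraries with those above. In Acadl KO / Acadvl wt against Acadl Het / Acadvl KO, 3 of the 35 genes were called, all higher, where 1.77% of all genes were: Chchd4 (log2 0.28 ± 0.08 SE, edgeR adjusted p = 0.043), Oxa1l (0.24 ± 0.06, adjusted p = 0.022) and Pmpca (0.21 ± 0.06, adjusted p = 0.0389). Pmpca averaged 211 ± 4.43 CPM in Acadl KO / Acadvl wt, against 182 ± 13.6 CPM in Acadl Het / Acadvl KO (SD, n = 4 each). The log2 changes of the 35 were positive for 33, with a median of 0.14 beside 0.01 for all genes. None of the 3 calls held with upper-quartile scaling, with only these genotypes in the fit, within either batch, or without the libraries above 10 CPM of Alb, and each was also lost without some single libraries. Grpel2 differed by 0.21 ± 0.14 (adjusted p = 0.395), which is not a call.

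A step from wt to Het in the label of either gene gave no calls among the 35. Acadl Het / Acadvl wt against Acadl wt / Acadvl wt called 0.00% of all genes, Acadl Het / Acadvl Het against Acadl Het / Acadvl wt 0.00633% (1 gene, not an import gene), and Acadl KO / Acadvl Het against Acadl KO / Acadvl wt 0.00%. The last thus missed Acadvl too, at 1430 ± 178 CPM in Acadl KO / Acadvl Het and 2115 ± 258 CPM in Acadl KO / Acadvl wt (SD, n = 5 and 4). Import gene changes of that size could be missed there as well. Nor did the Acadl KO difference depend detectably on the Acadvl Het label, with 0.00% of genes called for the interaction. At an unadjusted p below 0.05 these 4 comparisons held 0, 0, 1 and 0 of the 35 genes, and 541, 448, 1396 and 817 of all genes. DESeq2 and limma's voom called none of the 35 there either. The log2 changes ran from -0.13 to 0.21 for the Acadl Het label alone, and from -0.34 to 0.19 for the added Acadvl Het label.

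Several members have a relative in the same complex, and the ratio of their reads within a library does not depend on how libraries are scaled. In 5 of the 6 pairs examined the ratio differed between the 9 libraries labelled Acadl KO and the 7 labelled Acadl Het with Acadvl wt or Het, without overlap, each at an exact two-sided permutation p of 0.000175, the smallest this design allows (adjusted p = 0.00042 over 12 tests). Each of these 5 pairs holds a member called in the pooled comparison, where 54.7% of all genes were called. Other pairs of genes were not examined, so the count is not read as particular to import genes. Timm17a over Timm17b, alternative channel partners of Timm23, averaged log2 2.77 ± 0.10 in libraries labelled Acadl KO and 2.23 ± 0.09 in those labelled Acadl Het (SD, n = 9 and 7). Grpel2 over Grpel1 averaged -1.52 ± 0.25 in libraries labelled Acadl KO and -2.47 ± 0.15 in those labelled Acadl Het (SD, n = 9 and 7). Grpel2 thus stayed the rarer transcript but gained on Grpel1.

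Timm8a1 over Timm8b averaged -1.77 ± 0.20 in libraries labelled Acadl KO and -2.58 ± 0.10 in those labelled Acadl Het (SD, n = 9 and 7). Tomm40l over Tomm40, pore paralogs, averaged -0.93 ± 0.16 in libraries labelled Acadl KO and 0.01 ± 0.15 in those labelled Acadl Het (SD, n = 9 and 7). Thus both had near-equal reads under the Acadl Het label, and Tomm40l the fewer under Acadl KO. Timm10b over Timm10 averaged -1.94 ± 0.16 in libraries labelled Acadl KO and -1.07 ± 0.11 in those labelled Acadl Het (SD, n = 9 and 7). The obligate pair Pmpca over Pmpcb was the exception, at 0.33 ± 0.10 and 0.37 ± 0.05 (exact permutation p = 0.341).

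The Acadl Het / Acadvl KO libraries, in neither of those groups, were set against Acadl Het / Acadvl wt, whose 4 libraries are also among the 7 above. These 5 ratios differed there too without overlap, where 24.4% of all genes were called and other pairs were again not examined. Each had an exact two-sided permutation p of 0.0286, the smallest that 4 against 4 allows (adjusted p = 0.0343). The differences in log2 ratio were 0.47 for Timm17a over Timm17b, 1.01 for Grpel2 over Grpel1, 0.75 for Timm8a1 over Timm8b, -0.85 for Tomm40l over Tomm40 and -0.75 for Timm10b over Timm10. Pmpca over Pmpcb differed by -0.13 (exact permutation p = 0.0571, adjusted p = 0.0623). Tomm40l, Timm8b, Grpel1 and Pmpca overlap genes on the opposite strand, and the part of these overlaps in the ratios was not tested.

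**Figure D4:**
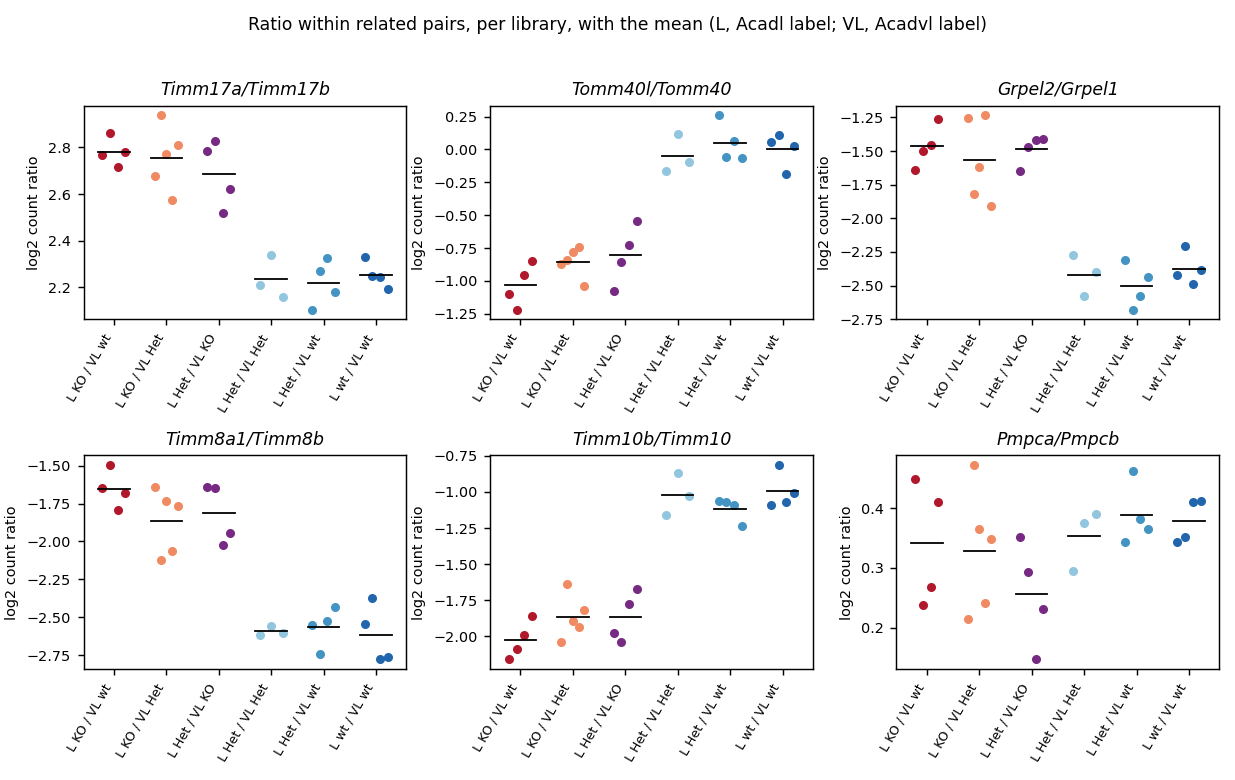
Log2 ratio of the read counts of related members in each library by genotype label (points) with the mean (line); the vertical axes differ and do not start at 0. In 5 panels the libraries with a knockout label separate from the others, and in Pmpca/Pmpcb they overlap.

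Genes around the machinery were counted in the same comparisons, where 19.6%, 26.7% and 12.9% of all genes were called higher and 17.6%, 27.9% and 11.5% lower, against wild type, in the pooled comparison and in Acadl Het / Acadvl KO in that order. Of 15 further import factors, 4 were higher and 2 lower in Acadl KO / Acadvl wt against Acadl wt / Acadvl wt, and 3 higher and 2 lower in Acadl Het / Acadvl KO against Acadl Het / Acadvl wt. Over the 9 libraries labelled Acadl KO against the 7 labelled Acadl Het, 6 were higher, led by the J protein Dnajc11 (log2 0.74), Hspa9 (0.51), the mitochondrial Hsp70 that Grpel1 and Grpel2 serve, and the SAM partner Mtx2 (0.40). In that comparison 4 were lower, with Mtx3 (-0.23), Mtch1 (-0.22) and Romo1 (-0.20) the farthest. Of 7 genes of MICOS, which shapes the inner membrane, 1 was lower in each of these comparisons, Apool, at log2 -0.20 in the pooled one, and none was higher. Among 13 matrix chaperones and inner membrane proteases, 6 were higher and 1 lower in the pooled comparison, led by Afg3l2 (0.71), Hspe1 (0.60) and Parl (0.42), with Oma1 (-0.18) lower. In Acadl KO / Acadvl wt 6 were higher and 0 lower, and in Acadl Het / Acadvl KO 4 were higher and 3 lower.

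The cargo of the changed branches was read too. Of 12 carriers that TIM22 inserts, 6 were higher in Acadl KO / Acadvl wt, 8 in the pooled comparison and 4 in Acadl Het / Acadvl KO, and none was lower. Their median log2 changes were 0.24, 0.24 and 0.18. The largest in the pooled comparison were Slc25a5, an ADP/ATP carrier (log2 1.17), Slc25a22, a glutamate carrier (0.96), and Slc25a33, a pyrimidine nucleotide carrier (0.96). Of 14 clients of the disulfide relay, 4 were higher in the pooled comparison, led by Coa4 (0.57), Chchd10 (0.37) and Cmc2 (0.27), and 1 was lower, the copper chaperone Cox17 (-0.26). The number of relay clients called higher lay near the share of all genes. Of 11 cytosolic chaperones that escort precursors, 6 were higher in the pooled comparison, led by Dnaja2 (0.68), Ubqln1 (0.52) and Hspa4 (0.48), and Dnaja1 (-0.25) was lower. In Acadl KO / Acadvl wt 6 were higher and 0 lower, and in Acadl Het / Acadvl KO 4 were higher and 2 lower. Of 6 stress transcription factors 6 were higher in the pooled comparison, with Atf3 (1.89), Atf4 (1.77) and Atf5 (1.26) at the top, and all 6 also in Acadl Het / Acadvl KO. In Acadl KO / Acadvl wt against wild type 5 were higher, and Cebpb was not called (log2 0.46). Every list was chosen with earlier results of these data known.

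Markers of other cells were read beside these results. The 5 endothelial markers, none of them at 0, summed to 1877 to 3051 CPM in Acadl KO / Acadvl wt, 2128 to 3632 CPM in Acadl KO / Acadvl Het, 1692 to 1891 CPM in Acadl Het / Acadvl KO, 1475 to 1830 CPM in Acadl Het / Acadvl Het, 1573 to 1827 CPM in Acadl Het / Acadvl wt and 1597 to 1741 CPM in Acadl wt / Acadvl wt. In Acadl KO / Acadvl wt against Acadl wt / Acadvl wt 1 of the 5 was called, Fabp4 (log2 1.11), which fat-handling cells also express, and in Acadl Het / Acadvl KO against Acadl Het / Acadvl wt none was. In the pooled comparison 3 of the 5 were higher: Fabp4 (1.07), Kdr (0.32) and Pecam1 (0.27). Of 8 cardiomyocyte markers none was higher, and 2 and 3 were lower in these comparisons. Their part in the import genes' changes was not tested. In whole-tissue RNA, fewer cells of a type and less RNA per cell cannot be told apart. Of 6 fibroblast markers 3 were lower in the pooled comparison, of 5 atrial markers 4, and of 8 hepatocyte markers 5, while 1 of 4 leukocyte markers and 1 of 3 skeletal muscle markers were higher. None of 5 erythroid or 3 adipocyte markers was called there. The 8 hepatocyte markers summed to 13.2 to 132 CPM in Acadl KO / Acadvl wt, against 11.9 to 20.9 CPM in Acadl wt / Acadvl wt. Without the 6 libraries above 10 CPM of Alb, 16 of the 35 import genes were called in that comparison, where 24.4% of all genes were. In the pooled one, with Acadl Het / Acadvl wt as its only control, 19 were called, where 40.3% of all genes were. In Acadl Het / Acadvl KO 13 were, where 17.4% of all genes were.

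Some of the smaller calls rested on single libraries. In Acadl KO / Acadvl wt against Acadl wt / Acadvl wt, Timm13 lost its call without wild-type replicate 2 (log2 0.20) and Timmdc1 without wild-type replicate 1 (0.23). Timm50 lost it without wild-type replicate 1 or Acadl KO / Acadvl wt replicate 2 (0.21 to 0.24), and Mipep without wild-type replicate 1 or 2 or Acadl KO / Acadvl wt replicate 4 (-0.18 to -0.17). Timm10b did so without wild-type replicate 1, 2 or 4 or Acadl KO / Acadvl wt replicate 2 (0.18 to 0.23), and Tomm6os without any of these or Acadl KO / Acadvl wt replicate 4 (0.17 to 0.25). In the pooled comparison Timm10b lost its call without any of 12 libraries (0.12 to 0.15) and Tomm20l without any of 8 (0.49 to 0.70). In Acadl Het / Acadvl KO against Acadl Het / Acadvl wt, Tomm70a lost its call without replicate 2 of either genotype (0.26 to 0.27), and Grpel1 without Acadl Het / Acadvl wt replicate 1 or 3 or Acadl Het / Acadvl KO replicate 2 (0.29 to 0.32). Timm50 did so without Acadl Het / Acadvl wt replicate 1 or 3 or Acadl Het / Acadvl KO replicate 1, 2 or 3 (0.22 to 0.26), and Timm17b without any of 18 libraries (-0.22 to -0.17). The changes of Grpel2, Timm10, Timm8a1, Tomm5, Timm9, Tomm40, Chchd4, Timm23 and Timm44 against their controls kept their calls in Acadl KO / Acadvl wt and in Acadl Het / Acadvl KO whichever library was left out. In Acadl Het / Acadvl KO, Timm44 lost its call with only the compared genotypes in the fit (log2 0.26, edgeR adjusted p = 0.0616). Within the second batch alone Timm44 (0.29) and Tomm5 (0.515) were not called there.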

How the data were processed

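PolyA RNA of mouse heart was sequenced, and the authors deposited raw counts of reads per gene for each library, which were made with featureCounts 1.5.2 over exons of an mm10 annotation per the file headers. Primary alignments were counted, without strand and with overlapping genes both credited, per the file headers. The submitters' processing notes name STAR 2.5.1b. Genes were filtered by edgeR 4.0.16 (filterByExpr on genotype), which left 15804, scaled by TMM and fitted by its quasi-likelihood test with genotype and RNA isolation batch over all 24 libraries, in R 4.3.3. Benjamini-Hochberg adjustment ran over all genes at a threshold of 0.05. CPM and RPKM used the TMM-scaled totals. Ratios of related genes were compared by exact permutation. Alternatives were RLE and upper-quartile scaling, DESeq2 1.42.0, limma 3.58.1 with voom, no filter, no batch term, single batches, fewer libraries, and 0.5 added to counts. The members and lists were chosen with earlier results of these data known. Every called member was named, with values by library for up to 12 with the largest changes against Acadl Het or wild type, and from each further list up to 3 called genes per direction with the largest change in the pooled comparison. Replicates differed by more than sampling noise. The labels do not say that they came from separate animals, so p-values measure the spread between these samples. Counting error was small at these depths except for Tomm20l and Timm8a2. The table of the whole series was not used here.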

Additional observations from a re-analysis of the deposited data

Results flagged for a closer look

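In 9 of the 130 sets of libraries examined (26 members in each genotype with 4 or 5 libraries), 1 library stood apart from the rest of its genotype. Chance alone gives about 1 in 20. Chchd4 was at 27.55 CPM in replicate 4 of Acadl Het / Acadvl wt, above the 24.9 to 25.35 CPM of the others. Timm13 was at 49.37 CPM in replicate 4 of Acadl KO / Acadvl wt, below 52.62 to 52.93 CPM, and at 46.38 CPM in replicate 1 of Acadl wt / Acadvl wt, above 43.3 to 43.75 CPM. Timm17b and Timm44 were both low in replicate 2 of Acadl KO / Acadvl Het, at 16.97 CPM (others 20.53 to 21.58) and 109.4 CPM (others 131.1 to 139.3). Timm23 was at 164.9 CPM in replicate 3 of Acadl wt / Acadvl wt, above 149.4 to 151.6 CPM. Timm50 was at 55.6 CPM in replicate 4 of Acadl Het / Acadvl KO, below 60.02 to 60.85 CPM. Timmdc1 was at 32.07 CPM in replicate 1 of Acadl wt / Acadvl wt, below 36.33 to 37.06 CPM, and its call against wild type was lost without that library. Tomm6os was at 16.77 CPM in replicate 3 of Acadl Het / Acadvl KO, above 15.05 to 15.34 CPM.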

How the results depend on the processing

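No called change and no ratio changed its sign under the alternatives run. The signs of members not called were not followed. Members called in Acadl KO / Acadvl wt against wild type numbered 22, and 3 within the first RNA isolation batch. In the pooled Acadl comparison there were 24, and 13 within that batch. In Acadl Het / Acadvl KO against Acadl Het / Acadvl wt there were 16, and 1 within that batch. That batch has 9 of the 24 libraries. With only the genotypes compared in the fit, the 16 calls became 11, with Grpel1, Timm17a, Timm17b, Timm44 and Timm50 no longer called. The 3 calls of Acadl KO / Acadvl wt against Acadl Het / Acadvl KO became 0 with upper-quartile factors, with only the genotypes compared, within either batch and without the libraries above 10 CPM of Alb, and 0 to 4 when 1 library was left out. The cause was not tested. With 1 library left out in turn, the first 3 counts ran from 17 to 23, 22 to 24 and 12 to 17. Ratios in the pooled Acadl comparison stayed past the threshold when 1 library was left out. In the Acadvl KO comparison the ratios lost the threshold without its library above 10 CPM of Alb, at 0.421 for Timm17a over Timm17b, -0.834 for Tomm40l over Tomm40, 1.008 for Grpel2 over Grpel1, 0.694 for Timm8a1 over Timm8b and -0.695 for Timm10b over Timm10. With 3 libraries against 4 the exact p cannot go below 0.0571. When 1 library was left out, the ranges in the same order were 0.421 to 0.524, -0.940 to -0.760, 0.953 to 1.076, 0.689 to 0.819 and -0.817 to -0.695. Without the Alb libraries, Acadl Het / Acadvl Het against Acadl Het / Acadvl wt and the interaction could not be computed. All libraries of Acadl Het / Acadvl Het were above that limit. The pooled comparison then had Acadl Het / Acadvl wt as its only control. No paired analysis was possible because the replicate numbers were given in accession order and pair no libraries.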
